A study of Mus musculus with 12 samples.

Results

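The genes described here encode the respiratory chain of mitochondria, and they were chosen by name from the genes that the array lists: names starting with Nduf and a subunit letter (complex I), Sdha to Sdhd (complex II), Uqcr (complex III), Cox4 to Cox8 with a subunit letter (complex IV) and Atp5 (complex V, ATP synthase). The rule took 85 of 30157 genes, read by 128 probes, and of these 37 fell in complex I, 4 in complex II, 8 in complex III, 19 in complex IV and 17 in complex V. All are nuclear genes. 3 of the names belong to proteins that are not subunits: Cox4nb is now called Emc8 and is part of an endoplasmic reticulum complex, while Atp5s and Atp5sl are now called Dmac2l and Dmac2. Cox7a2l is a factor that joins complexes III and IV, and Ndufa4, named for complex I, is now counted with complex IV. The counts by complex given here follow the names, so Ndufa4 stays in complex I and Cox4nb in complex IV.

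The chain sits in the inner mitochondrial membrane. Complexes I and II pass electrons from NADH and succinate to ubiquinone, complex III hands them to cytochrome c, and complex IV gives them to oxygen, while complexes I, III and IV pump protons that complex V uses to make ATP. Several complex IV subunits exist as isoforms, with a common form and a second form best known from muscle, testis or lung. Resting T cells draw much of their ATP from this chain, and activated T cells add glycolysis to it.

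RNA of CD4+ T cells from mice was read on 12 single-colour arrays, 3 for each of 4 groups, and the series text says that the replicates came from 3 independent experiments. The first group held CD4+ T cells from the central nervous system (CNS) of C57BL/6 mice at the peak of experimental autoimmune encephalomyelitis (EAE), which models multiple sclerosis in mice, after immunisation with the myelin peptide MOG35-55 (the immunised group). The second held B6.2d2 Th17 cells that had been put into Rag1-/- mice, which cannot make lymphocytes of their own, and were taken back from the CNS as CD4+ cells at the EAE peak (the transferred group). The third held Th17 cells made in culture from naive B6.2d2 CD4+ cells, and the fourth held those naive cells, from the spleen. B6.2d2 mice carry a transgenic T cell receptor for MOG, so the cultured, transferred and naive groups share it and the immunised group does not. Ages, sexes, the number of mice behind an array, the culture conditions and the purity of the cells are not given in the labels.

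Levels are given as the log2 of the processed signal minus the 75th percentile of the same array, so that 0 is a gene at that percentile, and a difference of 1 is a 2-fold change. Of the 85 genes, 80 were well above background on all 12 arrays and 82 entered the test across 18646 genes. Cox7b2 was not tested, Cox8b and Cox8c were not well above background on any array, and these are the testis and muscle forms of their subunits. Between 57.0% and 64.9% of probes were well above background per array. Of 12 T cell genes, 11 were well above background on all 12 arrays, and their summed linear signal was 330 to 498 in the immunised group, 247 to 348 in the transferred group, 541 to 562 in cultured cells and 517 to 605 in naive cells. Of 15 macrophage and monocyte genes, 14 were higher in the transferred group than in cultured cells, and their summed signal was 578 to 1196 in the immunised group, 790 to 1164 in the transferred group, 34.4 to 55.4 in cultured cells and 53.5 to 119 in naive cells. C1qc, which macrophages and microglia make, was not above background in cultured or naive cells. Of the 15 genes, though, 11 were well above background on all 3 cultured arrays and 7 on all 3 naive arrays. In cultured against naive cells 7 of the 15 were higher and 2 were lower (all genes 19.7% higher and 20.4% lower). Summed signal of 10 neutrophil genes was 547 to 685 in the immunised group, 96.5 to 260 in the transferred group, 79.7 to 99.6 in cultured cells and 110 to 226 in naive cells. 7 of 8 microglia genes were higher, and 5 of the 12 T cell genes were lower, in the transferred group than in cultured cells, and 5 of the 10 neutrophil genes were higher in the immunised than in the transferred group. Of 10 neural and glial genes tested, 4 were higher in the transferred and 6 in the immunised group than in cultured cells. Of 4 endothelial genes tested, 1 and 2 were higher, and 0 were lower in either list. Of all genes 12.8% and 13.7% were higher in these comparisons. The part of these genes' cells in the results was not tested. In bulk RNA, fewer cells of a type and less RNA per cell cannot be told apart.

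Levels of most respiratory chain genes differed little between the 4 groups. The span from the lowest to the highest group mean had a median of 0.51 over the 82 genes tested, against 1.09 over all genes tested. It stayed under 1 for 75 of the 82 (91.5%), against 46.3% of all genes. Among genes well above background on all 12 arrays the span was under 1 for 75 of 80 (93.8%), against 54.3% of 14926. By complex, the median span was 0.45 for complex I, 0.48 for complex II, 0.55 for complex III, 0.66 for complex IV and 0.44 for complex V. 42 of the 82 genes passed the test in none of the 6 comparisons, a count taken without the matching share over all genes.

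**Figure D1:**
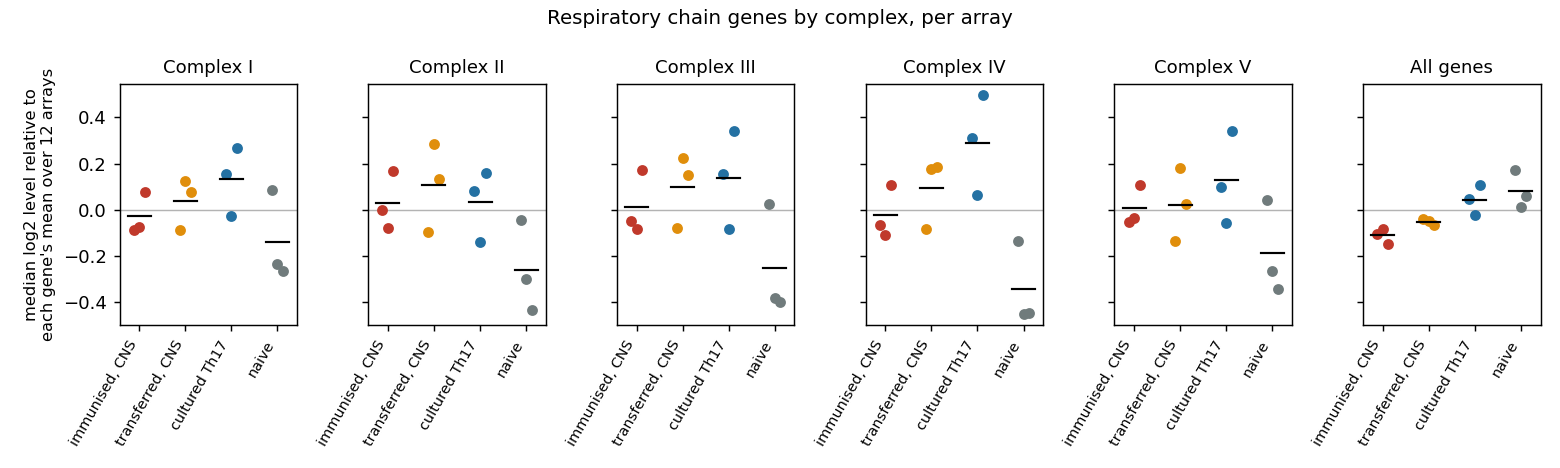
Median level of the respiratory chain genes on each array, as log2 difference from each gene's own mean over the 12 arrays, by complex and by group (points are arrays, lines the group means). The 80 genes well above background on all 12 arrays are used, and a last panel gives all genes that were so. In complex IV the 3 cultured arrays lie at 0.07 to 0.50 and the 3 naive arrays at -0.45 to -0.14.

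In cultured Th17 cells the respiratory chain genes leaned upwards against naive cells, complex IV most. Of 82 genes, 25 were higher and 2 were lower (adjusted p under 0.05 in limma, Benjamini-Hochberg over all genes), which is 32.9%, against 40.1% of all genes. The 25 higher genes were 30.5% of the 82, against 19.7% of all genes called higher, and the 2 lower genes were 2.44%, against 20.4% of all genes called lower. The median log2 change was 0.34, against -0.08 over all genes. The labels' replicate number is also the slide, and the median was 0.10, 0.29 and 0.71 within slides 1, 2 and 3. The split depended on scaling: quantile normalisation gave 16 higher and 9 lower with a median of 0.12, so that 64.0% of the called genes were higher, against 92.6% with the 75th percentile, and normexp with quantile normalisation gave 19 higher and 9 lower, or 67.9%. 12 genes were called without naive replicate 2, 13 without naive replicate 3 and 11 when the fit held the 6 compared arrays alone. 8 genes passed the test the same way in every one of the alternatives that tested them, a count taken without the matching share over all genes. They were Cox5a, Cox7a1, Cox7a2, Cox7c, Cox8a, Ndufb9, Ndufv3 and Sdhd.

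**Figure D2:**
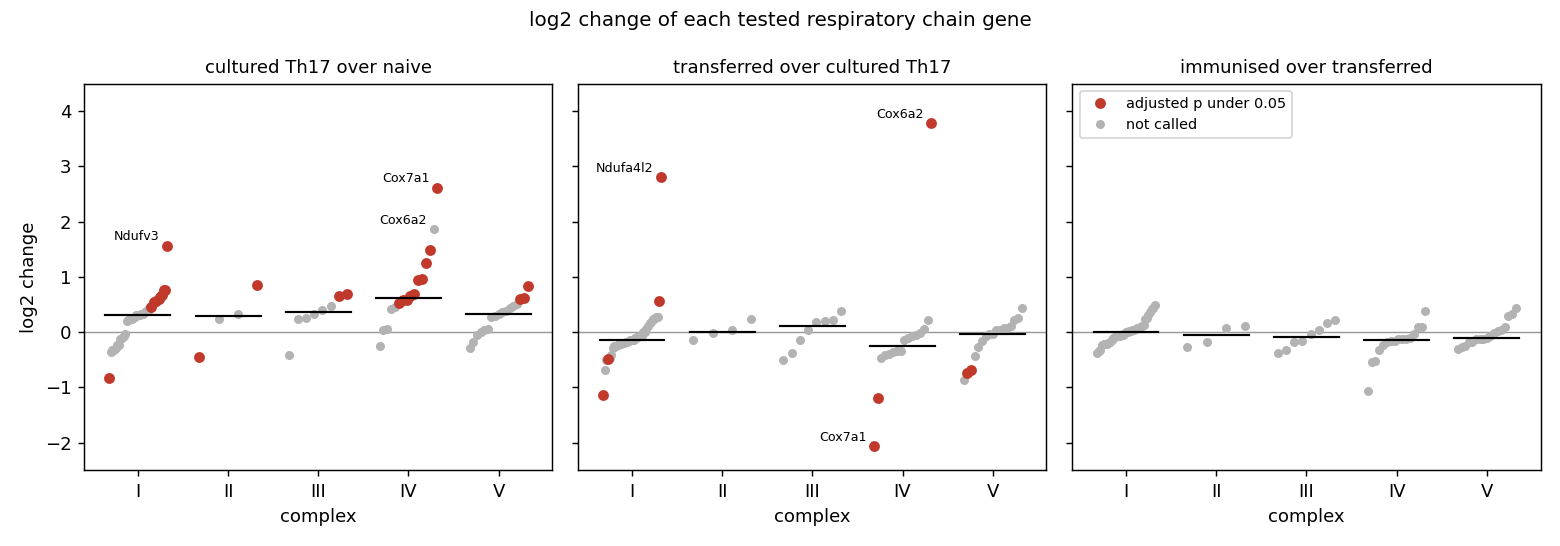
Log2 change of each tested respiratory chain gene by complex, in each of the consecutive comparisons, with genes that passed the test in red and those past 1.5 either way labelled. Most points lie within 1 of 0, and complex IV holds the widest spread, from Cox6a2 at 3.79 in the transferred group against cultured cells to Cox7a1 at -2.06 there.

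Complex I had 9 of 37 genes higher in cultured cells than in naive cells (24.3%, against 19.7% of all genes). 1 gene, Ndufa4, was lower (2.7%, against 20.4%), and the median change was 0.31. Ndufv3, a small accessory subunit of the flavoprotein part, stood at 6.08, 5.95 and 7.13 in cultured cells, against 5.07, 4.75 and 4.64 in naive cells. The groups did not overlap, and the third cultured array was the highest. The log2 change was 1.56 (SE 0.28, adjusted p = 0.00155), but the other 2 probes of Ndufv3 changed by 0.51 and -0.02, and the mean over all its probes by 0.68 (adjusted p = 0.0216). Ndufs5, a subunit on the intermembrane space side, rose by 0.76 (SE 0.23, adjusted p = 0.0218), and Ndufc2, in the membrane arm, by 0.76 (SE 0.23, adjusted p = 0.0223). Ndufa4 stood at 2.74, 2.0 and 2.80 in cultured cells, against 3.46, 3.36 and 3.21 in naive cells. All 3 cultured arrays were below all 3 naive arrays, and the change was -0.83 (SE 0.22, adjusted p = 0.0135).

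Complex II is the succinate dehydrogenase that also works in the citric acid cycle, and of its 4 genes 1 was higher and 1 was lower in cultured than in naive cells. Sdhd, a membrane anchor, stood at 4.19, 3.89 and 4.58 in cultured cells, against 3.55, 3.29 and 3.26 in naive cells. Sdha, the flavoprotein that oxidises succinate, stood at 3.57, 3.35 and 3.43 in cultured cells, against 4.08, 3.93 and 3.71 in naive cells. Neither gene's arrays overlapped between the groups: Sdhd was higher on every cultured array, and Sdha was lower on every one. Sdhd rose by 0.85 (SE 0.23, adjusted p = 0.0126), and Sdha fell by 0.46 (SE 0.16, adjusted p = 0.0403). The fall of Sdha lost its call under 12 of 22 alternatives, with adjusted p up to 0.316. Sdhb, the iron-sulfur subunit, changed by 0.33 (adjusted p = 0.151) and Sdhc, the other anchor, by 0.24 (adjusted p = 0.380), and neither passed the test. In the transferred group Sdhd stood at 3.79, 4.26 and 4.17 and was still 0.71 above naive cells (SE 0.23, adjusted p = 0.0244), and Sdha stood at 3.21, 3.59 and 3.49 and was 0.48 below them on the log2 scale, a change of -0.48 (SE 0.16, adjusted p = 0.0287). In the immunised group Sdhd stood at 4.03, 3.57 and 4.11 and Sdha at 3.52, 3.58 and 3.53, and neither passed the test against naive cells. The probes lie in mouse build mm9 at chr9:50404630-50404689 for Sdhd and chr13:74460310-74460369 for Sdha.

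The promoters of Sdhd and Sdha, whose genes moved in opposite directions, are shown beside that of Cox7a1, the gene that rose most in cultured cells. The sequences are the 250 bases before the gene start, 5′ to 3′ on the gene's strand, from RefSeq on GRCm38.p6, at chr9:50603850-50604099 (minus strand) for Sdhd, chr13:74350241-74350490 (minus strand) for Sdha and chr7:30183921-30184170 (plus strand) for Cox7a1. Capitals mark the letters GCGCA, 1 base of any kind and GCGC, on either strand, a core of the motif of NRF1, a factor known for binding respiratory chain promoters.
Sdhd: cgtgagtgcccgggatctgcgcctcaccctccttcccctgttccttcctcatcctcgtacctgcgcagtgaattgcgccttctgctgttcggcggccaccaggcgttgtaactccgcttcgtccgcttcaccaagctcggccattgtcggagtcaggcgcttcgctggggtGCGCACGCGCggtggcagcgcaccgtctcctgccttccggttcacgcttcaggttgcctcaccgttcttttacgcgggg
Sdha: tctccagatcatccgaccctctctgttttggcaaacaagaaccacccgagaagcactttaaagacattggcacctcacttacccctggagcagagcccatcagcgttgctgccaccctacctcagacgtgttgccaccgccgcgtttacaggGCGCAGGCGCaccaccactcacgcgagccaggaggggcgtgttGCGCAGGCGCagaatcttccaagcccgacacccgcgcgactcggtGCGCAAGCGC
Cox7a1: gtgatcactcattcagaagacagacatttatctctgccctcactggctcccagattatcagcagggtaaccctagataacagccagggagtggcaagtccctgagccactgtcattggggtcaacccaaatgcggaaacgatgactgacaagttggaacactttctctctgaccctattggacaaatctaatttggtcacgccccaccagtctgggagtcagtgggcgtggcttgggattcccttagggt
Sdhd held the motif once, Sdha held it 3 times, and Cox7a1 did not hold these letters in this window. Among the 69 respiratory chain genes with a window of 300 bases in the table, 16 (23.2%) held the NRF1 letters on either strand, against 4.78% of 27025 windows. The YY1 core AAGATGGCG was in 7 (10.1%), against 1.49%, and the ETS core CCGGAAGT in 5 (7.25%), against 4.0%, all searched on both strands. The YY1 and ETS letters were in none of the 3 stretches shown. The 69 windows had a median of 19 CpG, against 7 in all windows. Of genes called higher in cultured than in naive cells, 2 of 21 windows held the NRF1 letters, against 14 of 46 among the tested genes that were not called higher. A match is a match of letters, and binding was not measured.

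Complex III, which moves electrons from ubiquinol to cytochrome c, had 2 of 8 genes higher in cultured than in naive cells and 0 lower, with a median change of 0.37. Uqcrq, a small ubiquinone-binding subunit, stood at 5.46, 5.37 and 5.59 in cultured cells, against 5.10, 4.60 and 4.64 in naive cells. All cultured arrays were above all naive arrays, and the change was 0.70 (SE 0.20, adjusted p = 0.0200). Uqcrh, the hinge protein next to cytochrome c1, stood at 6.32, 6.42 and 6.80 in cultured cells, against 6.17, 5.71 and 5.71 in naive cells, a change of 0.65 (SE 0.18, adjusted p = 0.0160).

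Complex IV, by name, had 10 of 16 tested genes (62.5%) higher in cultured than in naive cells and 0 lower. Of all genes 19.7% were higher and 20.4% lower. These 16 leave out Ndufa4, which was lower, and include Cox4nb, which is not a subunit. Their median change was 0.62, and it was 0.45, 0.49 and 0.93 within the 3 slides. Cox5a, a nuclear subunit of the common form of the complex, stood at 6.59, 6.60 and 6.38 in cultured cells, against 5.25, 4.92 and 4.94 in naive cells. The lowest cultured array lay above the highest naive array by more than either group's spread, and the change was 1.49 (SE 0.17, adjusted p = 6.99e-05), which is 2.81-fold. Cox8a, the common form of the smallest subunit, stood at 6.64, 6.51 and 7.05 in cultured cells, against 6.05, 5.56 and 5.70 in naive cells, a change of 0.97 (SE 0.19, adjusted p = 0.00223). Cox7c, another small subunit in the membrane, stood at 4.55, 4.32 and 5.07 in cultured cells, against 3.93, 3.66 and 3.51 in naive cells, a change of 0.95 (SE 0.22, adjusted p = 0.00596). In both genes each cultured array lay above each naive array. The common isoforms Cox7a2, Cox6b1 and Cox7b rose by 0.69, 0.66 and 0.52 (adjusted p = 0.00974, 0.0338 and 0.0304). Cox4i1 changed by 0.46 (adjusted p = 0.0806) and Cox6a1 by 0.41 (adjusted p = 0.140), and these did not pass the test. Without naive replicate 2 the count of higher complex IV genes was 5, without naive replicate 3 it was 6, and under the 5 other scalings it was 7 to 10 with 0 lower.

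Complex V had 3 of 17 genes higher in cultured than in naive cells, or 17.6%, which is under the 19.7% of all genes. 0 were lower, against 20.4% of all genes, and the median change was 0.33. Atp5d, the delta subunit of the rotor stalk, stood at 4.14, 3.91 and 4.79 in cultured cells, against 3.65, 3.35 and 3.34 in naive cells, a change of 0.83 (SE 0.22, adjusted p = 0.0124). Atp5f1, subunit b of the outer stalk, rose by 0.62 (SE 0.17, adjusted p = 0.0138), and Atp5j2, subunit f in the membrane, by 0.60 (SE 0.19, adjusted p = 0.0280). The 3 genes for the c subunit, which make the same ring protein, did not pass the test: Atp5g1 changed by 0.01 (adjusted p = 0.967), Atp5g2 by 0.47 (adjusted p = 0.182) and Atp5g3 by 0.29 (adjusted p = 0.170).

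**Figure D3:**
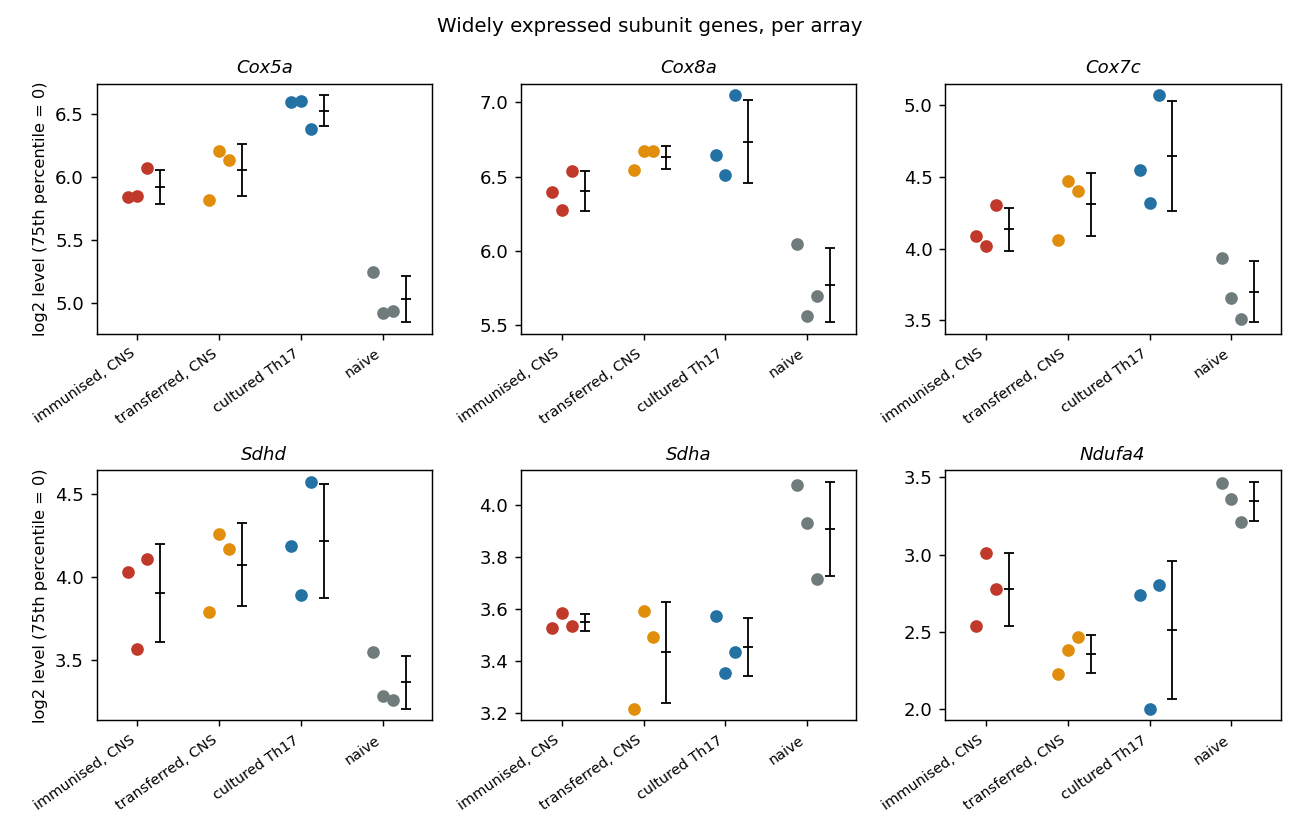
Levels of 6 subunit genes on each array (log2 processed signal minus the array's 75th percentile), by group, with group mean and SD. Cox5a, Cox8a, Cox7c and Sdhd are lowest in naive cells, and Sdha and Ndufa4 are highest there.

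When transferred cells from the CNS were set against cultured Th17 cells, few respiratory chain genes passed the test. Among them were the complex IV isoforms Cox6a2, Cox7a1 and Cox6b2. Of 82 genes, 3 were higher and 6 were lower, which is 11%, against 28.3% of all genes (12.8% higher and 15.5% lower). The median change was -0.10, as over all genes, and -0.23, 0.20 and -0.21 within the 3 slides. 5, 5 and 4 genes were called without transferred replicate 1, 2 and 3. Scaling by the 75th percentile of the probes detected on all 12 arrays gave 5 higher and 5 lower, or 12.2%, against 27.3% of all genes.

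Macrophage and microglia genes moved in these comparisons too, as given above, and their part was not tested. Cox6a2, the heart and muscle form of subunit 6a, rose most. It stood at -0.58, -0.52 and 2.01 in the transferred group, against -4.53, -3.0 and -2.92 in cultured cells. The groups did not overlap, although the third transferred array lay well above the other two. The change was 3.79 (SE 0.71, adjusted p = 0.00308), which is 13.8-fold, and 2.93 (adjusted p = 0.00623) without that array and 2.89 (adjusted p = 0.00398) with normexp and quantile normalisation. The immunised group stood at -0.91, 0.15 and 0.10, which is 3.26 above cultured cells (SE 0.71, adjusted p = 0.00592), or 2.42 with normexp and quantile normalisation, and naive cells at -4.76, -6.12 and -5.15, where 2 of 3 arrays were above background. Cultured cells against naive cells differed by 1.86 (SE 0.71, adjusted p = 0.0591), which did not pass the test, and which passed it under 7 alternatives (adjusted p 0.0159 to 0.331 over the alternatives). The common form Cox6a1 changed by -0.41 in the transferred group against cultured cells (adjusted p = 0.169). The Cox6a2 probe lies at chr7:135349160-135349219 (mm9).

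Cox7a1, the heart and muscle form of subunit 7a, took the opposite course. It stood at -0.91, -0.35 and 0.24 in the transferred group, against 1.82, 1.67 and 1.68 in cultured cells. Every cultured array was above every transferred array, and the change was -2.06 (SE 0.33, adjusted p = 0.00114), a level 4.18-fold lower in the transferred group. Naive cells stood at -0.35, -1.29 and -1.05, so that cultured cells were 2.62 above them (SE 0.33, adjusted p = 1.39e-04), which is 6.14-fold. The immunised group stood at -1.49, -1.77 and -0.99, below cultured cells by more than the spread, with a change of -3.14 (SE 0.33, adjusted p = 7.17e-05). Its partner Cox7a2 changed by -0.35 in the transferred group against cultured cells (adjusted p = 0.167), and Cox7a2l by -0.07 (adjusted p = 0.828). The Cox7a1 probe spans chr7:30970337-30970948 (mm9).

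Cox6b2, the testis form of subunit 6b, stood at -1.93, -1.89 and -1.98 in the transferred group, against -1.30, -1.15 and 0.23 in cultured cells. The groups did not overlap, and 1 cultured array, the third, was far above the other two. The change was -1.19 (SE 0.35, adjusted p = 0.0268), with adjusted p up to 0.0982 under the alternatives. Naive cells stood at -2.08, -2.19 and -1.70, and cultured cells were 1.25 above them (SE 0.35, adjusted p = 0.0158). Cox4i2, the lung form of subunit 4, stood at -2.14, -2.22 and -2.25 in the transferred group, against -2.10, -2.20 and -1.11 in cultured cells, and did not pass the test (adjusted p = 0.289).

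**Figure D4:**
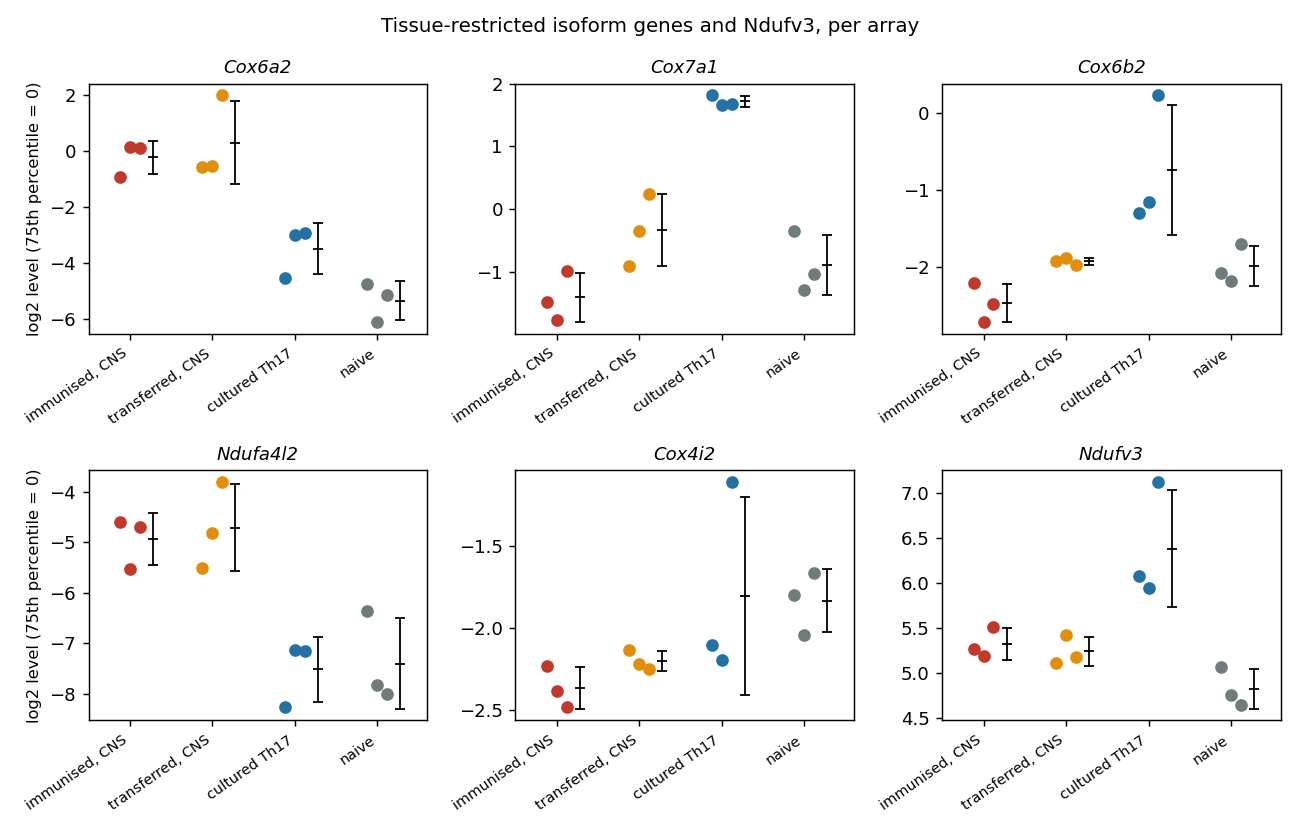
Levels on each array of 4 complex IV isoform genes, of Ndufa4l2 and of Ndufv3 (log2 processed signal minus the array's 75th percentile), by group, with group mean and SD. Cox6a2 is high in both CNS groups, and Cox7a1, Cox6b2 and Ndufv3 are highest in cultured cells.

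Among complex I genes, Ndufa4l2, a relative of Ndufa4 known to be induced by low oxygen, stood at -5.50, -4.82 and -3.80 in the transferred group. It was not well above background on any cultured or naive array, and was above it on 3 transferred and 2 immunised arrays. It entered the test through the transferred group alone, where it was high, so its place among the 3 higher genes is a description. The same holds for its place among the genes higher in either CNS group than in naive cells, given below. Its level was at least 2.08-fold higher in the transferred group than in cultured cells, a bound set by the dimmest signals above background, while normexp with quantile normalisation gave a log2 difference of 0.55, below that bound. Ndufa5, an accessory subunit near the ubiquinone site, stood at 3.97, 4.32 and 4.23 in the transferred group, against 3.79, 3.63 and 3.43 in cultured cells, a change of 0.56 (SE 0.16, adjusted p = 0.0262) whose call was lost under 7 of 22 alternatives, with adjusted p up to 0.209. Ndufv3 stood at 5.12, 5.43 and 5.18 in the transferred group, against the cultured levels given above, and changed by -1.14 (SE 0.28, adjusted p = 0.0135), or by -0.43 (adjusted p = 0.148) as the mean of its probes. In complex V, Atp5d fell by 0.69 (SE 0.22, adjusted p = 0.0375), a call lost under 11 of 22 alternatives, with adjusted p up to 0.131. Atp5sl fell by 0.75 (SE 0.23, adjusted p = 0.0342), a call lost under 7, with adjusted p up to 0.120, and Atp5s, at -0.86, did not pass the test (adjusted p = 0.0618). Atp5d, Cox6b2, Cox7a1 and Ndufv3 were among the genes both higher in cultured than in naive cells and lower in the transferred group than in cultured cells. The 2 comparisons share the cultured arrays. Cox7a1 and Cox6a2 passed the test under every alternative that tested them.

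Between the immunised and the transferred group no respiratory chain gene passed the test. In limma 0 of 82 were called, against 3.22% of all genes (1.85% higher and 1.37% lower), 3 had an unadjusted p under 0.05, and the count was 0 under every alternative run. The median change was -0.07, against -0.04 over all genes, and changes ran from -1.07 to 0.49. Cox7a1 had the largest fall, at -1.49, -1.77 and -0.99 in the immunised group, against -0.91, -0.35 and 0.24 in the transferred group. The groups did not overlap, the highest immunised array lying just under the lowest transferred one, and the change was -1.07 (SE 0.33, adjusted p = 0.105). Cox6a2 differed by -0.52 (SE 0.71, adjusted p = 0.728). Ndufa4l2, which entered the test through the transferred group, differed by -0.23 (SE 0.54, adjusted p = 0.855).

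Set against naive cells, both CNS groups had more respiratory chain genes higher than lower. The share called higher was not above that of all genes, and the share called lower was under it. In the transferred group 17 were higher (20.7%) and 4 were lower (4.88%), together 25.6%. Of all genes 47.7% were called (21.2% higher and 26.6% lower). The median change was 0.25, against -0.12 over all genes. In the immunised group 10 were higher (12.2%) and 1 was lower (1.22%), together 13.4%. Of all genes 48.4% were called there (20.6% higher and 27.8% lower), and the median change was 0.19, against -0.19. Within slide 1 the medians were below 0, at -0.15 and -0.07, and within slides 2 and 3 they were above it. Cox6a2 rose most in both, by 5.65 in the transferred group (SE 0.71, adjusted p = 1.22e-04) and by 5.13 in the immunised group (SE 0.71, adjusted p = 2.42e-04). 1 of the 3 naive arrays was not above background for it, so these sizes rest in part on an unmeasured level. With normexp and quantile normalisation they were 3.64 and 3.17, and the first was 4.80 without transferred replicate 3. Ndufa4 fell most in the transferred group, at 2.22, 2.38 and 2.47, against 3.46, 3.36 and 3.21 in naive cells, a change of -0.99 (SE 0.22, adjusted p = 0.00445). Ndufs1, the largest iron-sulfur subunit of complex I, was the 1 gene lower in the immunised group, at 2.90, 3.03 and 2.92, against 3.51, 3.39 and 3.28 in naive cells, a change of -0.45 (SE 0.13, adjusted p = 0.0184). Cox5a, Cox5b, Cox8a, Ndufb8 and Ndufc2 were higher than in naive cells in cultured cells and in both CNS groups, which are 3 comparisons with the same naive arrays. The matching share over all genes was not taken. Cox5a stood at 5.84, 5.85 and 6.07 in the immunised group and at 5.82, 6.21 and 6.13 in the transferred group, between its cultured and its naive levels. Ndufb8, an accessory subunit of the membrane arm, stood at 4.18, 3.96 and 4.44 in the immunised group, 4.17, 4.41 and 4.63 in the transferred group and 4.2, 3.97 and 4.19 in cultured cells, against 3.65, 3.28 and 3.38 in naive cells. Every array of these 3 groups was above every naive array. The counts rest on single arrays. The transferred group gave 10 without naive replicate 2, 13 without naive replicate 3 and 11 without transferred replicate 2 or 3. In these fits 40.1% to 42.0% of all genes were called. The immunised group gave 4 without immunised replicate 3, 7 without immunised replicate 1 and 5 without naive replicate 2 or 3. It gave 17 without naive replicate 1 and 23 without cultured replicate 3. Over these fits 36.4% to 55.2% of all genes were called. Median scaling gave 7 higher and 2 lower for the transferred group and 4 higher and 0 lower for the immunised group. Quantile normalisation gave 12 higher and 6 lower for the transferred group, or 66.7% higher against 81.0%, and 9 higher and 6 lower for the immunised group, where 90.9% of the called genes were higher with the 75th percentile. For the transferred group normexp with quantile normalisation gave 70.0% higher. For the immunised group it gave 64.7%, and the 75th percentile of probes detected on all 12 arrays gave 71.4%.

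The immunised group against cultured cells had 4 genes higher and 7 lower, which is 13.4%, against 31.5% of all genes (13.7% higher and 17.8% lower), with a median change of -0.14, against -0.17. The 4 include Ndufa4l2, whose place is a description here too. Cox6a2 rose most, and Cox7a1 fell most, as given above. Cox6b2 stood at -2.21, -2.71 and -2.49 in the immunised group and changed by -1.73 against cultured cells (SE 0.35, adjusted p = 0.00385). The counts were 5, 7 and 6 without immunised replicate 1, 2 and 3.

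**Figure D5:**
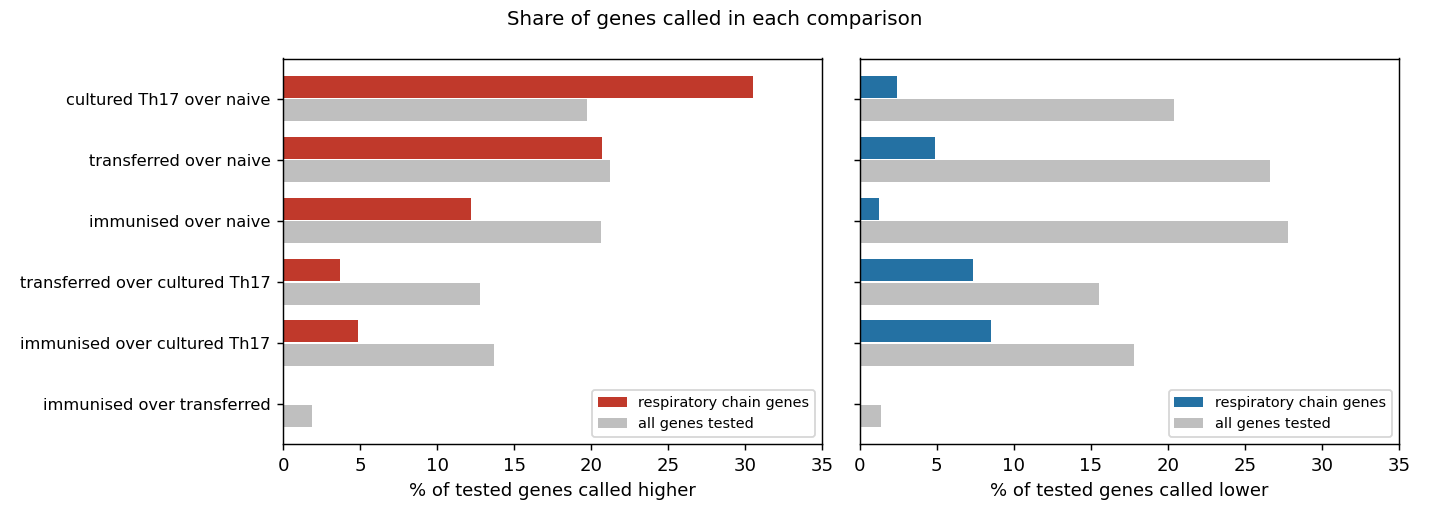
Share of respiratory chain genes and of all tested genes that passed the test, higher or lower, in each comparison, in percent. The share of respiratory chain genes called higher was above that of all genes in cultured against naive cells (30.5% against 19.7%), and the share called lower was under that of all genes there (2.44% against 20.4%).

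Other mitochondrial genes did not move as one with the subunits. The 13 protein genes of mitochondrial DNA, which encode the remaining core subunits, had 0 called in cultured against naive cells in limma and 0 with an unadjusted p under 0.05, with a median change of -0.31, and quantile normalisation called 2 lower. Of them mt-Nd6 alone passed a test, in the immunised group against cultured cells, with a change of -1.72 (adjusted p = 0.0198). Of 17 regulators of mitochondrial biogenesis, 1 was higher and 11 were lower in cultured than in naive cells (all genes 19.7% higher and 20.4% lower), with a median change of -0.76, and 7 to 12 were lower under the other scalings. These include Ppargc1b, a coactivator of mitochondrial genes, at -2.15 (adjusted p = 1.28e-04), Pprc1, its relative, at -1.42 (adjusted p = 1.72e-04), and Polrmt, the mitochondrial RNA polymerase, at -1.30 (adjusted p = 1.27e-04). 12 of 17 were lower than in naive cells in the transferred group (26.6% of all genes) and 11 in the immunised group (27.8% of all genes). Tfam, which packs and transcribes mitochondrial DNA, changed by -1.45 (adjusted p = 1.91e-04) and -1.49 (adjusted p = 1.68e-04) there. Ppargc1b rose by 2.30 in the transferred group against cultured cells (adjusted p = 1.54e-04).

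Of 43 assembly factors, 6 were higher and 5 were lower in cultured than in naive cells, and median scaling left 1 lower. Beside this and the lists that follow, 19.7% of all genes were called higher and 20.4% lower in that comparison. Sco1, which brings copper to complex IV, rose by 1.83 (adjusted p = 4.65e-05), and Lyrm7, a complex III factor, was at least 11.9-fold lower (adjusted p = 5.24e-05), not being above background in cultured cells. In the transferred group against cultured cells 1 was higher and 10 were lower (all genes 12.8% higher and 15.5% lower), with Sco1 at -1.61 (adjusted p = 1.84e-04), Tmem126b, for complex I, at -1.26 (adjusted p = 5.24e-04) and Surf1, for complex IV, at -1.07 (adjusted p = 0.0119). Of 18 mitochondrial transport genes, 7 were higher and 0 lower in cultured than in naive cells. They include Vdac1, the outer membrane channel, at 1.80 (adjusted p = 0.0106), Atpif1, an inhibitor of ATP synthase running backwards, at 1.79 (adjusted p = 1.41e-04), and Slc25a4, an ADP/ATP carrier, at 1.70 (adjusted p = 4.89e-04). Of 18 citric acid cycle genes 3 were higher and 4 lower, with Pcx, pyruvate carboxylase, at 3.03 (adjusted p = 7.71e-04) and Idh2 at -1.52 (adjusted p = 0.00115). Of 17 genes of ubiquinone and other electron carriers 2 were higher and 5 lower, with Dhodh, which feeds electrons from pyrimidine synthesis, at -1.54 (adjusted p = 2.31e-04). Of 7 mitochondrial antioxidant genes 2 were higher and 0 lower, and in the immunised group against naive cells Prdx5 rose by 2.58 (adjusted p = 1.01e-04) and Sod2 by 2.38 (adjusted p = 4.37e-04). Between the immunised and the transferred group, 0 genes of these 7 lists were called in limma.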

How the data were processed

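Total RNA of 12 samples in 4 groups of 3 was labelled with Cy3, per the labels' protocols. Spot intensity (processed signal) was made with Agilent Feature Extraction 10.7.3.1, protocol GE1_107_Sep09, per the file headers, which list background subtraction inside each array. The authors' deposited matrix of the series gives further intensity values, and how these were normalized is not stated. It served as an alternative. Probe coordinates are mm9, per the file headers.

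Control and outlier spots were left out (0 spots were saturated), repeated spots were averaged, and log2 of the deposited intensity minus the array's 75th percentile was taken for 39405 probes. The probe with the highest mean stood for a gene. Genes that 1 or more groups showed well above background on each of their 3 arrays were tested with limma 3.58.1 in R 4.3.3 on all 12 arrays, with Benjamini-Hochberg adjustment over 18646 genes, and called under 0.05. The number of arrays limits the precision. The fit was run first on simulated data in which 200 genes were changed. Scripts used Python 3.11.15, numpy 2.4.6 and pandas 2.3.3.

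Members and gene lists were chosen with earlier results of these data known. Named were, per complex and consecutive comparison, up to 3 called genes with the largest change each way whose groups did not overlap, the 4 Sdh genes, isoform sets, genes called against the majority and, for the other comparisons, the largest rise and fall, with up to 3 genes of each related list (assembly factors, electron carriers, citric acid cycle, biogenesis regulators, mitochondrial DNA, transport, antioxidants). Other genes named (Cox7c, Ndufb8 and the genes listed by pattern or by calls in every alternative) were chosen after their values were seen. Each slide held 1 array of each group, at a position fixed by the group, so position and group cannot be told apart. 1 named result is not reported here. Promoters came from RefSeq windows, matched by symbol for 69 of the 85 genes. Alternatives were other scalings, probe filters, probe averages, the slide as a block, the compared arrays alone and leaving out each array.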

Additional observations from a re-analysis of the deposited data

How the results depend on the processing

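Of 1927 repeats of 88 named results under 22 alternatives, 1793 kept their side of the threshold, 117 lost a call, 17 gained one and 0 reversed. Direction was compared only where the main fit or the alternative called the gene. Some changes that were never called crossed 0, such as Atp5g1 in cultured against naive cells (-0.36 to 0.13). Counts of respiratory chain genes called moved by over 1.5 times as follows: in cultured against naive cells 11 with the 6 compared arrays alone; in the transferred group against cultured cells 14 with normexp and quantile normalization, 5 with no filter on dim probes and 3 with the 6 arrays; in the transferred group against naive cells 9 with median scaling; in the immunised group against naive cells 17 with normexp and quantile normalization and 4 with median scaling; and in the immunised group against cultured cells 6 with median scaling and 5 with the 6 arrays. In these fits 29.1%, then 28.8%, 15.3% and 17.8%, then 42.8%, then 50.1% and 41.9%, then 27.3% and 23.7% of all genes were called. The median change in the immunised group against cultured cells was -0.022 with normexp and quantile normalization. The cause of these shifts was not tested.

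Leaving out 1 array gave 12 to 29 calls and medians of 0.27 to 0.46 in cultured against naive cells, 4 to 10 and -0.22 to 0.01 in the transferred group against cultured cells, 0 to 0 and -0.14 to -0.02 in the immunised against the transferred group, 10 to 26 and 0.19 to 0.38 in the transferred group against naive cells, 4 to 23 and 0.11 to 0.30 in the immunised group against naive cells, and 5 to 12 and -0.24 to -0.06 in the immunised group against cultured cells. Of all genes 31.6% to 39.5%, 19.6% to 28.4%, 1.04% to 6.88%, 40.1% to 53.3%, 36.4% to 55.2% and 22.1% to 31.1% were called in these fits, in that order. With the slide as a replicate block, the counts were 26, 6, 0, 17, 8 and 10 in the same order of comparisons. The shares of all genes called with that block were 38.5%, 27.2%, 2.99%, 46.5%, 47.6% and 30.1%. With that block Ndufc2 was called in neither CNS group against naive cells, and Atp5d and Atp5sl were not called in the transferred group against cultured cells. Deviations of arrays with the same number correlated at -0.20 to 0.20, so the numbers were not taken as pairs.

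Over all genes, calls between the immunised and the transferred group numbered 601, against 372 with no filter on dim probes, 367 with genes above background on all 12 arrays, 1282 without cultured replicate 3, 343 and 272 without transferred replicates 2 and 3, and 194, 221 and 366 without immunised replicates 1, 2 and 3. In the transferred group against cultured cells they numbered 5273, against 3318 with the 6 arrays alone. Arrays give no count of molecules, and 3 arrays a group limit what could be called.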
